A study of Homo sapiens with 6 samples.

Results

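The clustered histone genes are the genes of the HIST1 to HIST4 loci that encode the linker histone H1 and the core histones H2A, H2B, H3 and H4. Members were the rows of the count table whose symbol starts with HIST1H to HIST4H followed by 1, 2A, 2B, 3 or 4, without the 3 rows whose symbol ends as a pseudogene name does. This gave 73 of 28265 genes: 6 of H1, 17 of H2A, 21 of H2B, 14 of H3 and 15 of H4. By locus, 55 belong to HIST1 on chromosome 6, 14 to HIST2 and 3 to HIST3 on chromosome 1, and 1, HIST4H4, lies on chromosome 12. All 73 had a position in RefSeq (GRCh38.p14), where HIST2H2BA, HIST2H2BB and HIST2H2BC are listed as transcribed pseudogenes although the rule kept them.

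The cells were Huh7, an established hepatocellular carcinoma line, grown in serum-containing medium and transduced with lentiviral particles. The control group received a control vector and is labelled as parental cells, and the other group received a vector that expresses LHX2, a LIM-homeodomain transcription factor. RNA was taken after 48 h, with 3 libraries in each group. The promoter that drives LHX2 and whether the libraries came from separate cultures are points on which the sources used here say nothing. The p-values therefore compare the difference between the groups with the scatter of these libraries within a group. Part of that scatter may be technical. The LHX2 gene itself had 1, 2 and 1 reads in the control libraries and 2535, 2427 and 3126 in the LHX2 libraries, always given in the order of replicates 1, 2 and 3. Library totals ran from 30029313 to 39653681 reads. Of 10 hepatocyte markers, all of which were tested, 2 rose, 4 fell and 4 did not pass, with ALB at a mean of 12170 CPM (read counts scaled to a common library total, here with TMM factors) in control and AFP at 24742 CPM. HNF4A (-0.26 on the log2 scale), SERPINA1 (-0.30), APOA2 (-0.36) and TTR (-0.17) were the markers that fell, and TF (0.22) and GPC3 (0.25) those that rose. Among markers of other cell types, PTPRC and CD3E were at no more than 0.0328 CPM in either group's mean, and KDR, TEK and CDH5 had no read. PECAM1, also of the endothelial list, fell from 4.02 to 3.03 CPM. COL1A2, of the fibroblast list, rose from 9.26 to 36.8 CPM and LUM of that list from 9.01 to 12.6 CPM. The other markers of the fibroblast list, COL1A1, COL3A1, DCN and PDGFRB, were at no more than 0.291 CPM in either group's mean and were not tested. COL3A1 was at 0.234 CPM in control and 0.0811 CPM with LHX2, and PDGFRB at 0.208 and 0.0405 CPM. COL1A1 was at 0.201 and 0.291 CPM. Of the leukocyte list LYZ rose from 472 to 635 CPM and CD68 from 8.35 to 16.5 CPM. The summed level of the fibroblast list was 17.7 to 19.8 CPM in control and 46.6 to 52.7 CPM with LHX2, that of the leukocyte list 471 to 500 and 612 to 678 CPM. Their part in the histone values was not tested.

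Most clustered histone genes are transcribed in S phase, when new DNA is packed into nucleosomes. Their mRNAs are unusual in that they normally end in a conserved stem-loop, bound by the stem-loop binding protein SLBP, and not in a poly(A) tail. A part of them can also be read past the stem-loop to a downstream polyadenylation signal, which gives polyadenylated histone mRNA, known from cells that leave the cell cycle or differentiate. The libraries here were made with a kit that selects polyadenylated mRNA. The values therefore describe the polyadenylated transcripts of these genes, together with any stem-loop mRNA that passed the selection, and give no measure of total histone mRNA. Since whole cultures were sequenced, a change in the share of cells that carry such transcripts and a change in the amount per cell cannot be told apart.

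The stem-loop sites of 8 members are shown because this is the element that ends a histone mRNA without a poly(A) tail. The histone stem-loop was searched by its 16-base consensus in all GENCODE release 29 transcripts of the members (GRCh38), and the last match of the transcript that runs furthest past it was kept. Capitals mark the stem-loop, and 5 bases on each side are in lower case.
HIST1H2AC: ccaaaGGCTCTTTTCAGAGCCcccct
HIST1H2BC: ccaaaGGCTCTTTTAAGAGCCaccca
HIST1H2BD: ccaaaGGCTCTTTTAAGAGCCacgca
HIST1H2BH: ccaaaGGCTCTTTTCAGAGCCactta
HIST2H2BE: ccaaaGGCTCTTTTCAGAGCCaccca
HIST1H3E: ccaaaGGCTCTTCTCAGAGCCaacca
HIST1H4B: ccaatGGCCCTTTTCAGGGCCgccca
HIST1H4H: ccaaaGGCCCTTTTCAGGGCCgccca
The core letters set H4 apart from H2A, H2B and H3, but did not separate H2A, H2B and H3 from each other. No H1 gene had a match. All 8 H4 genes with a match had a core that begins with GGCCC, either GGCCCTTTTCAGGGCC (5 genes) or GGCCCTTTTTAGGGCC (3 genes). The 25 genes of H2A, H2B and H3 with a match all began with GGCTCTT, most often as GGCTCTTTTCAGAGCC (6 H2A, 8 H2B and 3 H3 genes).

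Past the stem-loop, 24 members had an annotated transcript that ran on for 100 bases or more (median 1160.5 bases), and in 17 of these a signal of the letters AATAAA or ATTAAA lay within 40 bases of the transcript's end. The last 30 bases of 4 such transcripts are printed with the signal in capitals, as the ends at which poly(A) would be added.
HIST1H2AC: tAATAAAaggtaatgcaaagggagaggaaa
HIST1H2BH: aattttttAATAAAaggtttttttaatgtc
HIST2H2BE: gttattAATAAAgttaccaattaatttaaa
HIST1H4H: agaattgtgaaaaAATAAAtgtttaagcca
These 24 members had a median of 269.5 reads over the 6 libraries, and 18 of them were tested. A stem-loop with under 100 bases after it was found in 9 members, with a median of 88 reads and 5 tested. In 3 of these 9, HIST1H2BD (17361 reads) among them, such a signal also lay within 40 bases of the end. Transcripts without a stem-loop did not enter this grouping. HIST1H2BD and HIST1H2BC each have 2 annotated transcripts, of which 1 holds the stem-loop. Their longest transcripts (789 and 659 bases) are not the ones with the stem-loop (496 and 571 bases). No stem-loop was found in the annotated transcripts of 40 members, with a median of 41.5 reads and 16 tested, but in 32 of these 40 the longest annotated transcript holds the coding sequence alone, so that the annotation could not show a stem-loop or a tail. HIST1H1C and HIST1H2BK, the members with the most reads, are among the 40. The medians are of reads not scaled to transcript length, which differs between these groups, so they do not compare levels.

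Reads were concentrated in few members. The 73 genes held 0.0994%, 0.0994% and 0.0898% of all reads in the control libraries and 0.113%, 0.115% and 0.120% with LHX2. HIST1H1C, which encodes the linker histone H1.2, took 42.2% of the members' reads and HIST1H2BK 30.5%, so these genes together made up 72.8%, and the 10 members with 1000 reads or more made up 96.0%. The median member had 91 reads over all 6 libraries. No reads at all were counted for 8 members: HIST1H4F, HIST3H3, HIST2H2AA3, HIST2H2AA4, HIST2H3A, HIST2H3C, HIST2H4A and HIST2H4B. A count of 0 of all reads allows up to 0.0149 CPM, for counting error only. The last 6 of these genes form near-identical pairs, in which 91.1% to 100% of all stretches of 50 bases of the longest transcript occur in another member. Of the 65 members with reads, HIST1H4K alone (100%, 34 reads) reached 90%. The sources used here do not say how reads that map to several places were treated, so the value of 0 for those 6 genes cannot be taken as no expression.

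A filter on low counts left 39 of the 73 members, 4 of H1, 8 of H2A, 15 of H2B, 6 of H3 and 6 of H4. The 34 others had at most 13 reads in any library and held 0.256% of the members' reads.

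**Figure D1:**
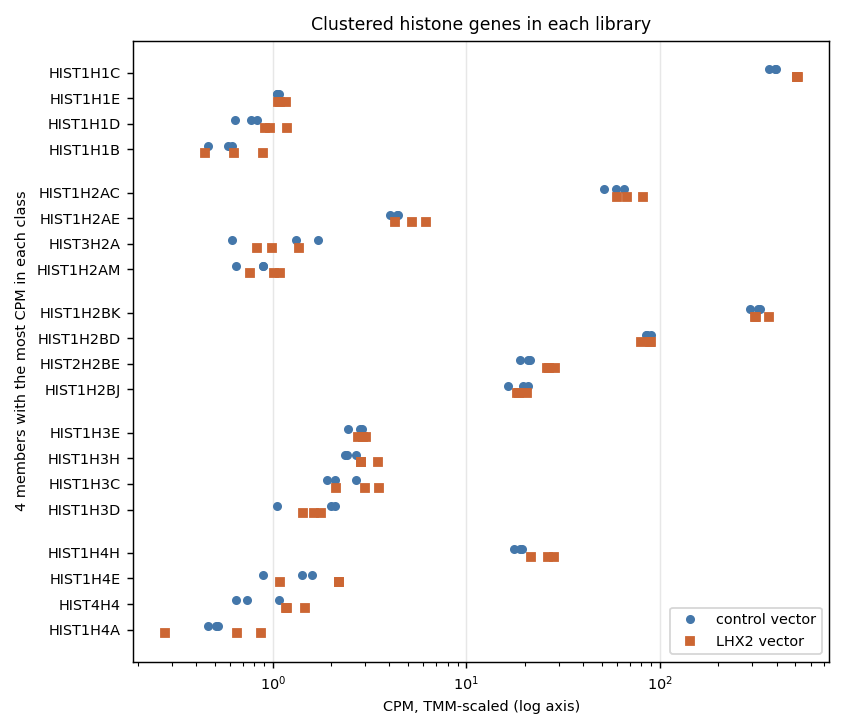
CPM (log axis) of the 4 members with the highest mean CPM in each class, with 1 point for each library of the control vector (circles) and the LHX2 vector (squares). HIST1H1C, HIST1H1D, HIST2H2BE, HIST1H3H, HIST1H4H and HIST4H4 are separated between the groups. The others overlap, among them HIST1H2BK and HIST1H2BD.

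With LHX2, 7 of the 39 tested members rose, 0 fell and 32 did not pass (edgeR quasi-likelihood test, Benjamini-Hochberg adjusted p under 0.05 over 14533 genes). They were HIST1H1C, HIST1H2BC, HIST1H2BH, HIST1H2BL, HIST2H2BE, HIST1H4B and HIST1H4H. The share that rose, 17.9%, was close to the 16.6% of all tested genes, so the number of rises does not set the histone genes apart. Among all tested genes 15.8% fell. At an unadjusted p under 0.05, 11 members were higher and 0 lower, where 21.6% of all tested genes were higher and 20.9% lower. DESeq2 (5 higher) and limma-voom (7 higher) also called 0 lower. The median log2 fold change of the 39 members was 0.28, where that of all tested genes was 0.01, and 34 members (87.2%) had a value above 0, where 52.1% of all genes did. In 11 members every LHX2 library lay above every control library, which was the case for 22.9% of all genes, and in 0 members the reverse held, against 22.1%. The number of rises was 4 without control replicate 1 and 11 without LHX2 replicate 3, and HIST1H1C, HIST2H2BE, HIST1H2BH and HIST1H4H were among the calls in all 15 alternatives.

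**Figure D2:**
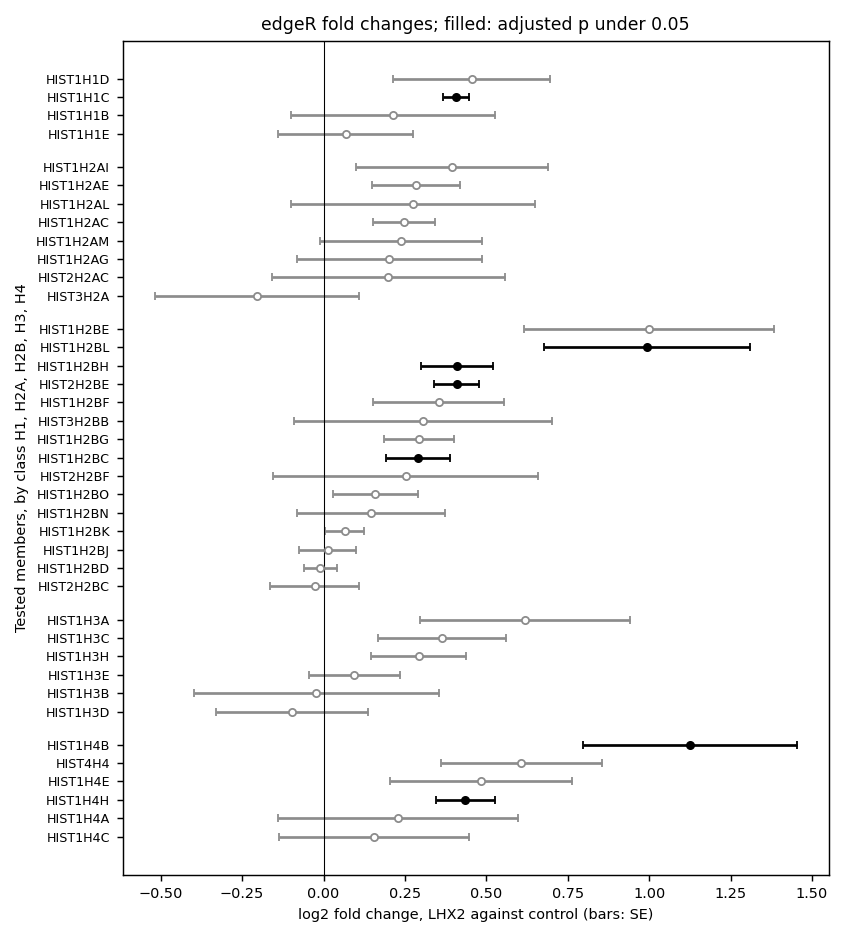
Log2 fold change of LHX2 against control with its SE for the 39 tested members, grouped by class from H1 at the top to H4 at the bottom. The 7 filled points passed the edgeR test, and 34 of the 39 points lie above 0.

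Of the linker histones, HIST1H1C rose and made up 99.4% of the class. HIST1H1C (chr6:26055740-26056470, - strand) had 12925, 15475 and 11938 reads in control and 15461, 15621 and 18353 reads with LHX2. These were 397, 395 and 368 CPM in control and 515, 513 and 509 CPM with LHX2, so that the groups did not overlap. Its fold change was 1.325 (log2 0.41 ± 0.04, SE; edgeR adjusted p = 2.4e-06). The other tested linker histone genes were near 1 CPM and did not pass. HIST1H1D had 0.746 ± 0.0988 CPM in control and 1.02 ± 0.141 CPM with LHX2 (SD, n = 3), without overlap between the groups. HIST1H1E had 1.06 ± 0.0167 and 1.10 ± 0.0535 CPM, and HIST1H1B 0.555 ± 0.0813 and 0.654 ± 0.222 CPM (SD, n = 3), both with overlap. HIST1H1A and HIST1H1T, the latter known from testis, had 34 and 11 reads in all libraries and were not tested.

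None of the 8 tested H2A genes passed. HIST1H2AC, with 86.5% of the reads of its class, had 58.98, 65.3 and 51.6 CPM in control and 59.7, 67.6 and 81.4 CPM with LHX2. The ranges overlapped, and the highest value came from LHX2 replicate 3. Its log2 fold change was 0.25 ± 0.10 (SE; edgeR adjusted p = 0.060), and it passed if control replicate 2 (0.33) or LHX2 replicate 1 (0.34) was omitted, if all genes were kept (0.25), and if values were corrected for transcript length and GC (0.32). Its log2 fold change was 0.16 without control replicate 3 and 0.12 without LHX2 replicate 3. HIST1H2AE had 4.28 ± 0.240 CPM in control and 5.23 ± 0.943 CPM with LHX2 (SD, n = 3) and passed at a log2 fold change of 0.42 without LHX2 replicate 3, while without LHX2 replicate 1 it was 0.15. HIST3H2A was the tested H2A gene with a value below 0, at -0.21 ± 0.31 (SE), and was 0.14 without control replicate 2. The 5 others lay between 0.20 and 0.39, among them HIST1H2AM at 0.24 ± 0.25 (SE), which ranged from 0.11 to 0.36 when single libraries were left out.

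H2B was the class with the most tested genes, and 4 of 15 (26.7%) rose, where 16.6% of all tested genes did. HIST2H2BE (chr1:149884459-149886682, - strand) had 679, 839 and 613 reads in control and 860, 815 and 935 reads with LHX2. In CPM these were 20.9, 21.4 and 18.9 against 28.6, 26.8 and 26.0, with no overlap, and the fold change was 1.33 (log2 0.41 ± 0.07, SE; edgeR adjusted p = 3.7e-04). HIST1H2BH (chr6:26251614-26252075, + strand) rose by the same factor, from 4.92, 4.41 and 4.40 CPM to 6.43, 6.30 and 5.55 CPM (edgeR adjusted p = 0.010). Both genes have annotated transcripts that end at a polyadenylation signal far past the stem-loop, as printed above.

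HIST1H2BC and HIST1H2BL also rose, but each call was lost when some single libraries were left out. HIST1H2BC (chr6:26113170-26123926, - strand) had 11.8, 14.1 and 12.7 CPM in control and 15.8, 17.8 and 13.85 CPM with LHX2 (log2 fold change 0.29 ± 0.10, SE; edgeR adjusted p = 0.034). LHX2 replicate 3 lay below control replicate 2, and the call was lost on omission of control replicate 1 (0.23), control replicate 3 (0.28), LHX2 replicate 1 (0.28) or LHX2 replicate 2 (0.20). HIST1H2BL (chr6:27807479-27807929, - strand) had 12, 16 and 10 reads in control and 25, 26 and 19 reads with LHX2. Its groups did not overlap (log2 fold change 0.99 ± 0.32, SE; edgeR adjusted p = 0.026), but it did not pass with DESeq2 (1.01) or without any 1 library other than LHX2 replicate 3, at 0.87 to 1.10. HIST1H2BE, with 7, 8 and 7 reads in control and 17, 12 and 12 with LHX2, had no overlap either and did not pass (fold change 1.999, SE 0.38 on the log2 scale; edgeR adjusted p = 0.060). HIST1H2BG came close to the threshold, from 9.66 ± 1.49 CPM in control to 11.9 ± 0.894 CPM with LHX2 (SD, n = 3; edgeR adjusted p = 0.051). It passed with library totals alone, with both other filters on low counts, with the replicate block, with the correction for length and GC, and on omission of control replicate 2 or LHX2 replicate 3.

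HIST1H2BK and HIST1H2BD, the H2B genes with the most reads, did not pass, and neither did HIST1H2BJ. HIST1H2BK had 330, 323 and 293 CPM in control and 310, 313 and 365 CPM with LHX2, overlapping ranges with the top value in LHX2 replicate 3 (log2 fold change 0.06 ± 0.06, SE). Without that library the value was -0.02. HIST1H2BD had 85.7, 90.3 and 84.5 CPM in control and 90.2, 89.1 and 79.6 CPM with LHX2 (-0.01 ± 0.05, SE), and HIST1H2BJ 18.9 ± 2.196 and 19.1 ± 1.24 CPM (SD, n = 3). In RefSeq HIST1H2BK overlaps HIST1H4I and HIST1H2BD overlaps an antisense gene, both on the opposite strand. The kit keeps strand, but the sources used here do not give the strand setting of the counting, so reads of overlapping genes may not be told apart.

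No H3 gene passed among 6 tested. Reads were spread more evenly here than in the other classes: HIST1H3E held 24.6%, HIST1H3H 24.2%, HIST1H3C 22.0% and HIST1H3D 14.7% of the class. HIST1H3H had 2.43, 2.68 and 2.37 CPM in control and 3.50, 2.86 and 2.86 CPM with LHX2, without overlap (log2 fold change 0.29 ± 0.15, SE; edgeR adjusted p = 0.14), and was at 0.19 without LHX2 replicate 1. HIST1H3C had 2.23 ± 0.404 and 2.88 ± 0.724 CPM (SD, n = 3) and passed without LHX2 replicate 3 (0.56), but was at 0.19 without LHX2 replicate 2. HIST1H3E was at 0.09 ± 0.14 and HIST1H3D at -0.10 ± 0.23 (SE), the latter at 0.01 without control replicate 1 and 0.08 without control replicate 2.

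Of the 6 tested H4 genes 2 rose (33.3%, where 16.6% of all tested genes did). All 6 had a log2 fold change above 0, where 52.1% of all tested genes did. HIST1H4H (chr6:26285126-26285534, - strand) held 82.6% of the class. It had 618, 762 and 573 reads in control and 847, 804 and 773 reads with LHX2, or 19.0, 19.4 and 17.7 CPM against 28.2, 26.4 and 21.5 CPM. The groups did not overlap, with LHX2 replicate 3 closest to control, and the fold change was 1.35 (log2 0.43 ± 0.09, SE; edgeR adjusted p = 1.9e-03). HIST1H4B (chr6:26026896-26027283, - strand) had 9, 9 and 11 reads in control and 21, 19 and 19 reads with LHX2 (log2 fold change 1.13 ± 0.33, SE; edgeR adjusted p = 0.016). It did not pass with DESeq2 (1.13), without control replicate 1 (1.12) or 2 (0.98), or without LHX2 replicate 1 (1.02). HIST4H4 was without overlap, from 0.819 ± 0.224 CPM in control to 1.27 ± 0.168 CPM with LHX2 (SD, n = 3; edgeR adjusted p = 0.074), and passed without control replicate 2 (0.87) and with the correction for length and GC (0.66). HIST1H4E, at 0.48 ± 0.28 (SE), passed without LHX2 replicate 3 (0.77) and was at 0.26 without control replicate 2. HIST1H4A was at 0.23 ± 0.37 and -0.14 without LHX2 replicate 1.

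Sums over each class were taken as a description, with no test. H1 summed to 389 ± 16.3 CPM in control and 515 ± 2.802 CPM with LHX2 (SD, n = 3), a ratio of 1.32 that is nearly HIST1H1C alone: without it the class summed to 2.63 ± 0.149 and 2.95 ± 0.288 CPM. H4 had a ratio of 1.37, from 22.5 ± 0.592 to 30.9 ± 4.64 CPM, and 1.45 without HIST1H4H. H2A summed to 67.9 ± 7.67 and 80.5 ± 11.1 CPM, H3 to 10.6 ± 1.08 and 12.3 ± 0.491 CPM, and H2B to 481 ± 26.4 and 510.5 ± 20.01 CPM. The libraries of the groups did not overlap for H1, H3 and H4 and overlapped for H2A and H2B. All members together gave 996, 1006 and 912.5 CPM in control and 1132, 1141 and 1175 CPM with LHX2, a ratio of 1.18, and 1.09 without HIST1H1C. Per kilobase of coding sequence the order of the summed levels was H2B (1291 CPM per kb), H1 (704), H2A (189), H4 (85.6) and H3 (27.9). Per kilobase of the longest annotated transcript H2B (1035) and H1 (704) again led, and H2A followed at 57.7. H3 (17.2) and H4 (17.3) were alike, so their order depends on the length used. The longest annotated transcripts of HIST1H2BK (381 bases) and HIST1H1C (642 bases) are the coding sequence alone, while that of HIST1H2AC has 1668 bases. The lead of H2B and H1 per kilobase of transcript therefore rests in part on what is annotated. HIST1H2BK alone gave 846 of the 1035 CPM per kb of H2B, so the place of H2B above H1 depends on the annotated length of that gene.

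**Figure D3:**
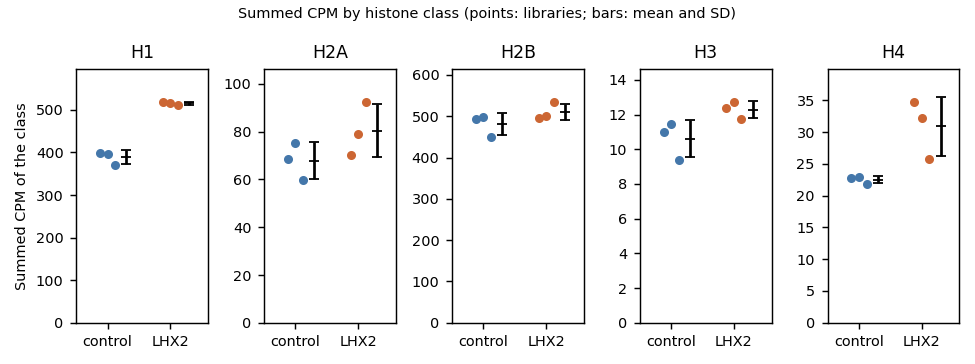
Summed CPM of each histone class in the 3 control and 3 LHX2 libraries (points), with the mean and SD of each group and an axis that starts at 0. H1, H3 and H4 show no overlap, with ratios of 1.32, 1.16 and 1.37, and H2A and H2B overlap.

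The promoters of 5 members are shown to let the elements of H1, H2B and H4 genes be compared, in 4 members that rose and in HIST1H2BK, which did not pass. They are the 120 bases before the RefSeq start (GRCh38.p14), read on the gene's strand, at chr6:26056471-26056590 (- strand), chr1:149886683-149886802 (- strand), chr6:27146859-27146978 (- strand), chr6:26027284-26027403 (- strand) and chr6:26285535-26285654 (- strand). Capitals mark CCAAT, the box bound by NF-Y, TATAAA, and ATTTGCAT, the octamer bound by POU2F1, each on either strand.
HIST1H1C: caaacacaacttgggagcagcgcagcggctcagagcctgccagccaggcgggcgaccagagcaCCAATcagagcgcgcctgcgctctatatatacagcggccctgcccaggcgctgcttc
HIST2H2BE: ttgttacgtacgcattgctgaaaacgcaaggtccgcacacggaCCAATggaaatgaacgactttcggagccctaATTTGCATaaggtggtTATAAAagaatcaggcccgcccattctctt
HIST1H2BK: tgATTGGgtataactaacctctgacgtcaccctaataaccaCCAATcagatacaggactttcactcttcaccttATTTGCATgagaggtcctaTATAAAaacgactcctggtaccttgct
HIST1H4B: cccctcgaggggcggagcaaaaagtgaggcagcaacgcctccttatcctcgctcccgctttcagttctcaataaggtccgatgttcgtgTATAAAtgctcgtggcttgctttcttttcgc
HIST1H4H: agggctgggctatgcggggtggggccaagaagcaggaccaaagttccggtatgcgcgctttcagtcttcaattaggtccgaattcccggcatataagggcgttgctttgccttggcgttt
Promoter windows of 300 bases (250 before to 50 after the start) were found for 65 members. CCAAT was present in all windows of H1 (6), H2A (16), H2B (18) and H3 (12) but in 3 of 13 of H4, where 35.7% of all 27305 RefSeq promoters of the same length held it. The octamer was found in 11 of 16 H2A and 14 of 18 H2B windows, in 1 of 12 H3 windows and in 0 of H1 and H4, with a share of 1.80% among all promoters. The H3 window is that of HIST1H3D, which has the same RefSeq start as HIST1H2AD, so that 1 window was counted for both genes. The 11 H2A and H2B pairs described below have starts 194 to 248 bases apart, so the windows of a pair overlap. An element in the shared stretch can be counted for both genes, and the H2A and H2B counts are therefore not independent. TATAAA was in 43 of the 65 windows, and in 11.95% of all promoters. TAATTA, a core that many homeodomain proteins bind, was in 4 of the 65 windows (6.15%) and in 4.98% of all promoters. HIST2H2BE, which rose, and HIST1H2BK, which did not pass, both hold all 3 of these histone elements in the printed window, and HIST1H4H holds none of them.

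Many H2A and H2B genes lie back to back and share a promoter region. Pairs were sought among the 65 members whose strand was known. On this basis, 11 pairs of an H2A and an H2B gene had starts 194 to 248 bases apart on opposite strands. Members without a known strand could not enter, so the list of pairs is not complete. HIST1H2AH (46 reads), whose span lies next to that of HIST1H2BK (64880 reads), was left out in this way. The H2B side had more reads in 8 pairs and the H2A side in 3. Among the 8 are HIST1H2AA and HIST1H2BA with 2 and 4 reads, and HIST1H2AJ and HIST1H2BM with 19 and 32. HIST1H2AM, HIST1H2AJ and HIST1H2AI share 86.3%, 83.7% and 62.3% of their stretches of 50 bases with other members. Their counts may be too low, since the handling of reads that map to several places is not given. In the pair of HIST2H2BE and HIST2H2AC the reads over all libraries were 4741 and 91, and HIST2H2BE rose while HIST2H2AC was at 0.20 ± 0.36 (SE). HIST1H2BJ had 3826 reads and HIST1H2AG 167. The order was the other way in the pair of HIST1H2BC (2865 reads) and HIST1H2AC (12940 reads). HIST1H2BG (2160 reads) and HIST1H2AE (943 reads) had like log2 fold changes of 0.29 ± 0.11 and 0.28 ± 0.14 (SE). In RefSeq HIST1H2AD, with 4 reads, lies inside the span of HIST1H3D on the same strand, so that reads of these genes may not be told apart.

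**Figure D4:**
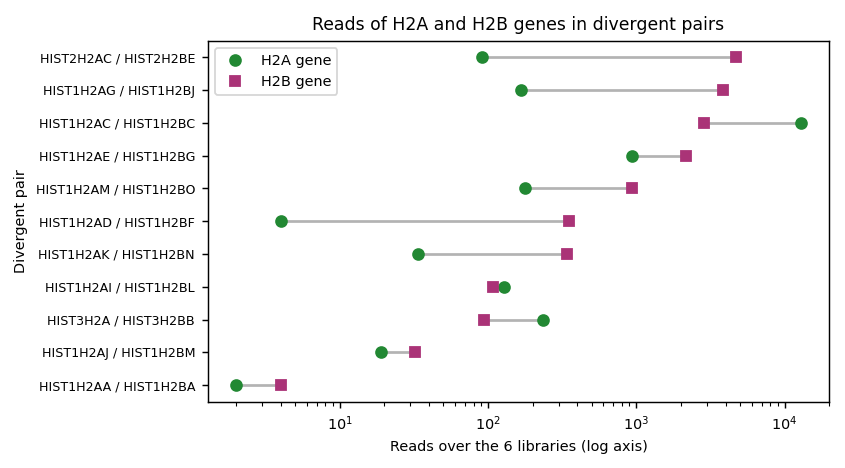
Reads summed over the 6 libraries (log axis) for the H2A gene (circle) and the H2B gene (square) of each of the 11 divergent pairs. Members without a known strand could not form a pair. The H2B gene has more reads in 8 pairs and the H2A gene in 3.

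Many histone genes outside the clusters are spliced or polyadenylated as other genes are. Of 10 tested, 3 rose and 0 fell, where 16.6% of all tested genes rose and 15.8% fell. H1F0, the linker histone H1.0 of slowly dividing cells, rose from 324 ± 15.5 CPM in control to 389 ± 18.9 CPM with LHX2 (SD, n = 3; edgeR adjusted p = 4.9e-04). H1FX (log2 fold change 0.37) and H2AFV (0.16) were the others, and 1 gene was left on omission of control replicate 2, LHX2 replicate 1 or LHX2 replicate 2, or with a replicate block. H1FX was lost without any 1 library but control replicate 1, at 0.20 to 0.43, and H2AFV without control replicate 1 or 2 or LHX2 replicate 1 or 2, at 0.12 to 0.14. H2AFZ was at -0.04 ± 0.04 and H3F3B at 0.01 ± 0.04 (SE). Of the 20 genes listed, 7 had no read, and among those tested (10, or 13 without a filter) 0 were lower at the adjusted threshold under the 15 alternatives.

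Genes that make or process histone mRNA went in different directions. For the counts of each list, the shares among all tested genes were 16.6% higher and 15.8% lower. Of 12 regulators of histone gene transcription 4 rose and 8 did not pass, among them NPAT, the cyclin E-CDK2 substrate that activates histone genes, at 0.11 ± 0.06 (SE). CCNE2, which encodes cyclin E2, rose from 18.1 ± 0.525 CPM in control to 25.9 ± 2.19 CPM with LHX2 (SD, n = 3; edgeR adjusted p = 8.6e-05), and the acetyltransferase gene CREBBP by 0.26 on the log2 scale. CREBBP was at 0.06 with the correction for length and GC, which left 2 higher and 1 lower. POU2F1 (0.17) and CDK2 (0.13) were called as well. The count was 2 without control replicate 1 or 2. POU2F1 was lost on omission of control replicate 1 (0.17), of control replicate 2 (0.15) and of LHX2 replicate 2 (0.07), and CDK2 without any 1 library but LHX2 replicate 2, at 0.09 to 0.15.

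In the list of stem-loop 3′ end processing 6 of 16 fell, 0 rose and 10 did not pass, where 15.8% of all tested genes fell. The median log2 fold change of the list was -0.10, where all genes were at 0.01. No member was higher under any of the 15 alternatives. COIL, the Cajal body scaffold coilin, fell from 92.8 ± 2.88 CPM in control to 81.5 ± 2.70 CPM with LHX2 (SD, n = 3; edgeR adjusted p = 3.5e-03). SNRPB, a core protein of spliceosomal and U7 snRNPs, fell by 0.18 on the log2 scale and NCBP2, of the nuclear cap-binding complex, by 0.16. SRRT, its partner ARS2, fell by 0.19, a call lost without control replicate 1 (-0.16) or LHX2 replicate 2 (-0.12). SLBP itself was at -0.03 ± 0.05 (SE; edgeR adjusted p = 0.68).

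Of 15 histone mRNA decay genes 1 was higher, 4 were lower and 10 were not called, where 16.6% of all tested genes were higher and 15.8% lower. ERI1, the exonuclease that trims the stem-loop end, fell from 54.4 ± 0.788 CPM in control to 46.2 ± 2.302 CPM with LHX2 (SD, n = 3; edgeR adjusted p = 1.5e-03), and LSM6 fell by 0.16 on the log2 scale. XRN1 rose by 0.19, and EXOSC9 fell by 0.14. With control replicate 1 or 2 or LHX2 replicate 2 omitted, 2 genes fell and XRN1 no longer passed (0.14 to 0.19). The call of EXOSC9 held only when control replicate 3 or LHX2 replicate 3 was the library omitted. Of 16 cleavage and polyadenylation genes 1 was higher, 4 were lower and 11 were not called, beside the same shares of all tested genes. PABPC1, the cytoplasmic poly(A)-binding protein, fell from 526 ± 11.7 to 440 ± 9.67 CPM (SD, n = 3), CLP1 fell by 0.15 and RBBP6 by 0.15 on the log2 scale, and WDR33, which binds the AATAAA signal, rose by 0.14. The number that fell was 2 without control replicate 2, and RBBP6 was lost on omission of control replicate 1 (-0.14), of control replicate 2 (-0.16) and of LHX2 replicate 3 (-0.12).

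Of 23 histone chaperone genes 3 were higher, 6 lower and 14 not called, where 16.6% of all tested genes were higher and 15.8% lower. IPO4, an importin that carries H3 and H4 with ASF1, fell from 99.6 ± 4.85 CPM in control to 77.1 ± 5.34 CPM with LHX2 (SD, n = 3; edgeR adjusted p = 8.9e-05). ASF1A fell by 0.30 and HIRA by 0.24 on the log2 scale, and CHAF1B, of the replication-coupled complex CAF-1, rose by 0.20. Without control replicate 1 no chaperone was called higher (CHAF1B 0.18), and without control replicate 2 the number that fell was 3. Of 23 S-phase genes 5 were higher, 0 lower and 18 not called, beside the same shares of all tested genes, with a median of 0.02. TK1, thymidine kinase, had 82.1 ± 2.11 CPM in control and 107 ± 0.777 CPM with LHX2 (SD, n = 3) and rose (edgeR adjusted p = 3.2e-06), as did E2F2 by 0.38, MCM6 by 0.18 and UHRF1 by 0.17 on the log2 scale, while PCNA was at -0.03 ± 0.04 (SE). The number that rose was 3 without control replicate 3, where UHRF1 no longer passed (0.13). Whether these genes take part in the histone values was not tested.

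**Figure D5:**
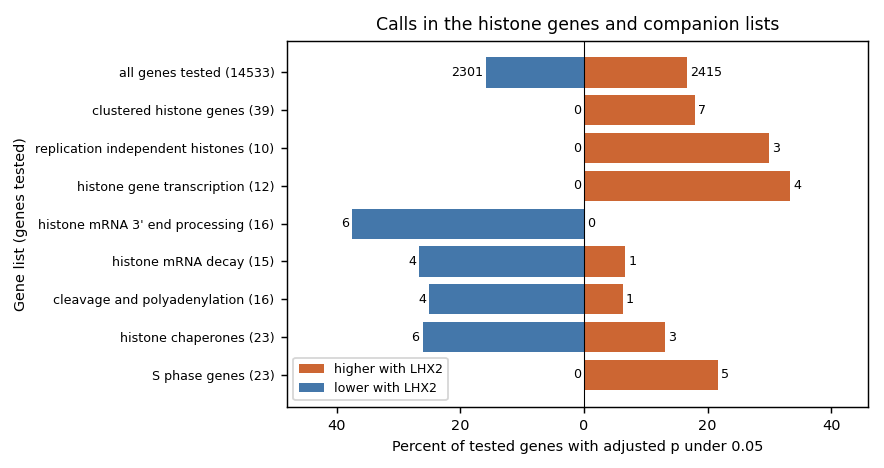
Share of tested genes (percent) that passed the edgeR test as higher (right) or lower (left) with LHX2, for all genes, the clustered histone genes and 7 companion lists, with the number of genes at each bar. The clustered histone genes have 7 higher and 0 lower, and stem-loop processing genes 0 higher and 6 lower.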

How the data were processed

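The 6 libraries were made from total RNA of Huh7 cells with a stranded mRNA kit, per the labels' protocols; such kits select polyadenylated RNA. Per the submitters' processing notes, the authors' tools were featureCounts 2.0.0, SAMtools 1.9, TopHat2 2.1.1, Bowtie2 2.3.5.1, FastQC and bcl2fastq 2.20, on GRCh38/hg38. The sources used here do not give the annotation, the strand setting or the handling of multi-mapped reads. The deposited values are raw counts of reads per gene, without normalization. The name of 1 control column has another form than its neighbours and was assigned to control replicate 1 from its ending.

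Genes with few reads were dropped by filterByExpr of edgeR (settings min.prop 0.7, min.count 10 and min.total.count 15), and 14533 genes stayed. The whole table was fitted with TMM scaling and the edgeR quasi-likelihood F-test, with Benjamini-Hochberg adjustment at 0.05; standard errors come from the F statistic. The fit was tested on simulated data. Alternatives were DESeq2, limma-voom, other scalings and filters, a replicate block, omission of each library, and a correction for transcript length and GC by loess (span 0.3). Versions were DESeq2 1.42.0, limma 3.58.1, edgeR 4.0.16, R 4.3.3 and Python 3.11.15.

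Members and lists were chosen with earlier results of these data known. Named were members with an adjusted p under 0.05, the 4 members of each class with the highest mean CPM, and up to 4 called genes of each companion list. Members and genes named outside this rule (HIST1H1A, HIST1H1T, HIST1H2BE, HIST1H2BG, the genes of the divergent pairs, H2AFZ, H3F3B, NPAT, SLBP and PCNA) were chosen after their values were seen. The 73 member rows carry no gene identifier and were matched to RefSeq by older symbols.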

Additional observations from a re-analysis of the deposited data

Results flagged for a closer look

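HIST2H3PS2, which the rule dropped as a pseudogene, was called higher with LHX2. Whether it shares stretches of sequence with other histone genes was not examined. HIST2H3PS2 had 65, 93 and 87 reads in the control libraries and 95, 114 and 105 in the LHX2 libraries. These were 2.35 ± 0.342 and 3.27 ± 0.425 CPM (SD, n = 3), without overlap between the groups. The log2 fold change was 0.47 ± 0.16 (SE; edgeR adjusted p = 0.032). Of the other dropped rows, HIST2H3DP1 had 2 to 10 reads in a library and HIST1H2APS1 had 1 read in all.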

How the results depend on the processing

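The count of 7 members higher ranged from 4 to 11 when single libraries were left out and from 5 to 10 under the other alternatives, and 0 members were lower under all 15. Same-numbered libraries did not deviate together (correlations of -0.17, -0.16 and -0.38 across 11699 genes) and none correlated best with its own number. These values therefore did not show a pairing by number, but with 3 libraries in each group they cannot exclude it. The replicate block gave 8 members higher and moved the companion counts to 1 (histones outside the clusters) and 2 (transcription regulators). DESeq2 gave 2 higher transcription regulators. With library totals alone 2 decay genes were lower and 2 polyadenylation and 5 chaperone genes higher. With the correction for length and GC, 2 transcription regulators were higher and 1 lower, 2 decay genes lower, 0 polyadenylation and 1 chaperone gene higher, and 1 S-phase gene lower.

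With single libraries left out, histones outside the clusters had 1 to 2 higher, transcription regulators 2 to 3 higher, decay genes 0 to 1 higher and 2 to 4 lower, polyadenylation genes 2 to 4 lower, chaperones 0 to 4 higher and 3 to 7 lower, and S-phase genes 3 to 6 higher. Members that did not pass changed sign in places: the log2 fold change of HIST1H2BD was 0.0168 with library totals alone, 0.0470 with the correction for length and GC, and -0.0495 to 0.0451 with single libraries left out, and the ranges were -0.0645 to 0.45 for HIST1H1B, -0.0774 to 0.0855 for HIST1H2BJ, -0.0175 to 0.10 for HIST1H2BK, -0.34 to 0.0839 for HIST1H3D, -0.14 to 0.60 for HIST1H4A and -0.51 to 0.14 for HIST3H2A. The log2 ratio of summed CPM was 0.17 for H1 and 0.12 for all members without HIST1H1C; the cause of the other changes was not tested. HIST1H2BL and HIST1H4B rested on 9 to 26 reads in a library, and the members not tested had at most 13.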
